A study of Homo sapiens with 6 samples.

Results

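The genes described here encode the 2 Aurora kinases of dividing somatic cells with their partners: AURKA with its activators TPX2 and BORA, the chromosomal passenger complex (AURKB, INCENP, BIRC5 and CDCA8), and the shugoshins SGO1 and SGO2. The members are all probe sets of the deposited value table whose only gene symbol is one of these 9 genes, which gave 28 probe sets of the 49293 tested. AURKA, AURKB and TPX2 had 1 probe set each, INCENP and CDCA8 had 2, BORA, SGO1 and SGO2 had 3, and BIRC5 had 12. Probe sets of a gene share their target, so they are not independent measurements.

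The RNA came from 786-O, a long-established line of human renal cell carcinoma kept in serum-containing medium, and each of 6 samples was read on its own one-colour Affymetrix array. Lentiviral shRNA had been brought into all of the cells. In 3 samples it was a negative control (shNC), and in 3 it was directed at ERCC6L (shERCC6L), a DNA translocase of anaphase chromosome threads. The protocol text names only the ERCC6L shRNA for every sample, and gives neither the number of hairpins nor the time after infection. Nothing says whether the replicates were separate cultures, so the p-values rest on a spread among samples that may be technical only.

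Aurora A acts at centrosomes and spindle poles, where TPX2 activates and anchors it on spindle microtubules and BORA helps it to switch on the kinase PLK1. Aurora B is the enzyme of the passenger complex: INCENP is its scaffold and activator, and survivin (BIRC5) and borealin (CDCA8) bring the complex to centromeres, where it releases faulty microtubule attachments before it moves to the midzone for cytokinesis. The shugoshins bind the phosphatase PP2A at centromeres, shield centromeric cohesin and help to recruit the passenger complex. Transcripts of these genes are known to rise towards mitosis in cycling cells, and ERCC6L protein itself works in mitosis.

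ERCC6L itself, the gene aimed at, fell. Signals of ERCC6L were 239.9, 244.3 and 261.4 in shNC and 97.59, 97.49 and 97.83 in shERCC6L, a log2 fold change of -1.22 ± 0.04 (SE, n = 3 per group; adjusted p = 4.6e-07). Here and below fold changes are shERCC6L over shNC on the log2(signal + 16) scale, which understates the change of dim probe sets, and the adjusted p comes from limma over all 49293 probe sets with a threshold of 0.05. Correlations between arrays of the same group were 0.999 and those across groups 0.993 to 0.994, and array medians lay between 60.04 and 61.56. All 8 measured markers of the renal line, among them PAX8, CDH6 and VIM, had a probe set at or above the median level of all probe sets (a signal of 61.2), while 2 of 15 markers of leukocytes, endothelium, fibroblasts and hepatocytes did (VWF and COL1A1). Without detection calls in the table, no level marks off signal from background.

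On the brightest probe set of each gene, all 9 members were higher in shERCC6L, by 1.09-fold (BORA) to 1.58-fold (BIRC5), and in each of the 9 the lowest shERCC6L array read above the highest shNC array, as in 23.1% of all genes. The rise was largest for BIRC5, AURKA (1.48-fold) and SGO2 (1.41-fold), and smaller for CDCA8 (1.23-fold), INCENP (1.19-fold), SGO1 (1.18-fold), TPX2 (1.17-fold) and AURKB (1.17-fold). Of the 28 member probe sets, 20 passed as higher and 0 as lower by limma (also 0 lower at an unadjusted p under 0.05), where 16.8% of all probe sets passed as higher and 11.9% as lower. Of the 22 member probe sets at or above the median level 19 passed as higher, where 29.6% of all probe sets at that level did, and of the 6 dimmer ones 1 did, where 4.07% did. By genes, 9 of 9 passed as higher on the brightest probe set, against 17.8% of all 18132 genes and 32.1% of those at or above the median gene level, which all 9 members reached. The median log2 fold change of the 28 probe sets was 0.29, against -0.01 over all probe sets. The same 20 probe sets had groups that did not overlap, all higher, where 22.3% of all probe sets had such higher values. A rise past the threshold of at least 1.5-fold was seen in 3 of the 28, all of BIRC5, and in 0.799% of all probe sets. The members were proposed with results of these arrays known, so these counts describe them and are not independent support.

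**Figure D1:**
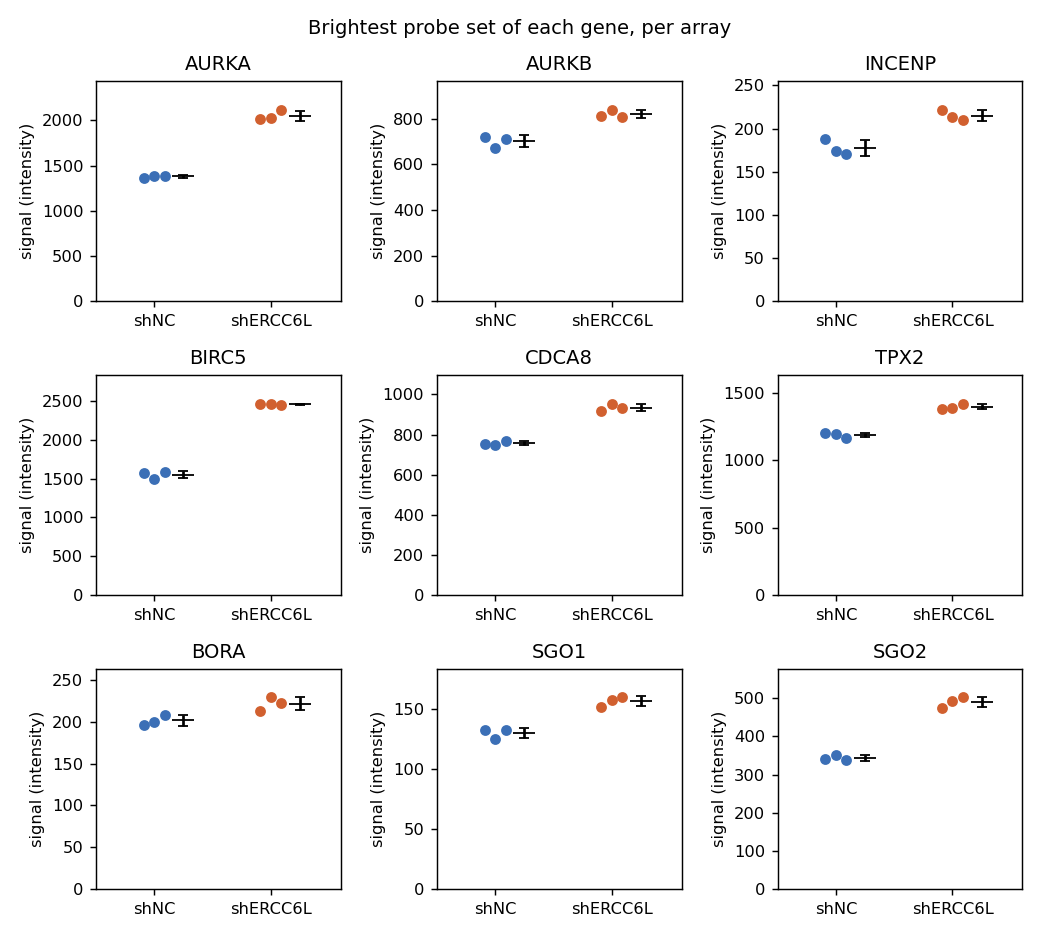
Signal (linear intensity, axis from 0) of the brightest probe set of each of the 9 genes on the 3 shNC and 3 shERCC6L arrays; coloured points are arrays, and the black bar and whiskers are the group mean and SD (n = 3). The shERCC6L points lie above the shNC points in all 9 panels, widest apart for BIRC5, AURKA and SGO2 and closest for BORA.

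The promoters were read for 2 letter patterns known from genes expressed in late cell cycle: TTTGAA or TTTAAA, the cores of the element bound by the MuvB complexes that silence and activate such genes, and CCAAT, the box bound by NF-Y. The RefSeq promoter table (GRCh38.p14) held 6 of the members: AURKB, INCENP, CDCA8, BORA, SGO1 and SGO2. The 250 bases before the start are given 5′ to 3′ on the gene's strand for 5 of them, with matches on either strand in capitals (ATTGG is CCAAT on the other strand, and TTCAAA would be TTTGAA). Where the table has 2 starts, the upstream one is shown.
AURKB, chr17:8210250-8210499, minus strand: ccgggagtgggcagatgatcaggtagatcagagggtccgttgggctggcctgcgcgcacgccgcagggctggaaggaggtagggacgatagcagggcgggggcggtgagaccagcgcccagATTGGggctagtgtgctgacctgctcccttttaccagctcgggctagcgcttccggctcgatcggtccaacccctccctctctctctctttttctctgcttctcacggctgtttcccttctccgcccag
INCENP, chr11:62123761-62124010, plus strand: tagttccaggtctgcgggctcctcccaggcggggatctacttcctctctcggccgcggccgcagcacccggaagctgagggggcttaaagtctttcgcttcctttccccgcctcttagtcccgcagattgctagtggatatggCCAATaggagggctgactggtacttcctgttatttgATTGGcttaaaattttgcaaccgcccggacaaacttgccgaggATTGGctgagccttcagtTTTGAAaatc
CDCA8, chr1:37692266-37692515, plus strand: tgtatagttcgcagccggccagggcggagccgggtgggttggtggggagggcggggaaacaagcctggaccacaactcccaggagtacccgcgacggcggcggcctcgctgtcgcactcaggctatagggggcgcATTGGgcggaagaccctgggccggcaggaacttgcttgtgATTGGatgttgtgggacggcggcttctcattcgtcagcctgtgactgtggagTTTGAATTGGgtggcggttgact
BORA, chr13:72727673-72727922, plus strand: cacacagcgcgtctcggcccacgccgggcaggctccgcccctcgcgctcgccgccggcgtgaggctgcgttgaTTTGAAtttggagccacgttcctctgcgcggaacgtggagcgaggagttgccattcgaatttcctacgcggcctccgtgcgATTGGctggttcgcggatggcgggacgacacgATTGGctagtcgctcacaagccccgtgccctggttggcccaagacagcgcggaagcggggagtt
SGO1, chr3:20186207-20186456, minus strand: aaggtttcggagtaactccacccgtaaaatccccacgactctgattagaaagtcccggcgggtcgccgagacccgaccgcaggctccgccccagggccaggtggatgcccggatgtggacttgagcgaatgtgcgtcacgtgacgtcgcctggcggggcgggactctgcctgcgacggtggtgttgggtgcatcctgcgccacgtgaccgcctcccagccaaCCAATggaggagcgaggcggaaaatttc
For SGO2 the 250 bases before the upstream start held none of the patterns, and a TTTAAA lay 36 bases into the transcript, which is 30 bases before a second start 65 bases downstream, within these 30 bases.
SGO2, chr2:200526162-200526191, plus strand: ccaacggctgtggcgTTTAAAcccaagccg

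INCENP and CDCA8 carried TTTGAA close to the start, with its first base 10 and 23 bases before it, and 3 CCAAT boxes each. In CDCA8 a CCAAT box on the other strand begins at the last letter of the TTTGAA. BORA carried TTTGAA farther off, at 177 bases, with 2 CCAAT boxes. AURKB and SGO1 held 1 CCAAT box each, at 129 and 28 bases, and neither TTTGAA nor TTTAAA in the 250 bases searched. For AURKB these were the bases before the upstream of its 2 starts. Its other start was not searched, whereas for SGO2 the search went past the upstream start. Thus 3 of 6 had TTTGAA or TTTAAA before the start and 5 of 6 had CCAAT. Of all 35116 promoters of the same length 21.9% and 32% held them. Members were counted once each, at the upstream start, while the 35116 count every start of a gene, so the units differ. A match is a run of letters, not a shown site. Of the 6 genes, BORA and AURKB had the smallest changes on the brightest probe set, at log2 0.13 and 0.22. BORA carried TTTGAA, and AURKB did not before its upstream start. A link between the patterns and the size of the change was not tested.

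AURKA, the spindle pole kinase, had signals of 1363, 1389 and 1388 in shNC and of 2010, 2026 and 2117 in shERCC6L. Arrays of a group lay close together, and the nearest arrays of the 2 groups were 621.8 signal units apart. Its log2 fold change of 0.57 ± 0.03 (SE; adjusted p = 8.4e-06) passed, and 0.899% of all probe sets rose by more. Across the alternatives tried it stayed between 0.54 and 0.58.

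TPX2, which activates Aurora A on the spindle, rose by less. Its probe set read 1202, 1195 and 1169 in shNC and 1385, 1391 and 1422 in shERCC6L, a log2 fold change of 0.23 ± 0.03 (adjusted p = 0.00075). The 3 values of each group again stood apart from the other group. BORA, the cofactor through which Aurora A activates PLK1, had the smallest change among the 9 genes. Its brightest probe set read 196.7, 199.7 and 208.5 in shNC and 213, 229.2 and 223 in shERCC6L, so that the groups were separated by less than the range within either (0.13 ± 0.04, adjusted p = 0.041). This call was lost without shNC replicate 1 or 2 and without shERCC6L replicate 2 or 3 (adjusted p from 0.095 to 0.14), with a pseudocount of 1 (0.082), with quantile normalization (0.079) and with the gene's probe sets averaged (0.07, adjusted p = 0.23). The other 2 BORA probe sets did not pass, at 0.10 (95% interval -0.06 to 0.26) and -0.01 (-0.10 to 0.07).

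AURKB, the kinase of the passenger complex, read 719, 671 and 713 in shNC and 813.1, 839.8 and 808 in shERCC6L. The groups did not overlap, and the log2 fold change was 0.22 ± 0.04 (adjusted p = 0.0026), a rise exceeded by 9.81% of all probe sets. INCENP, its scaffold, read 187.9, 173.9 and 170.7 in shNC and 221.8, 213.5 and 209.6 in shERCC6L on the brighter of its probe sets (0.26 ± 0.04, adjusted p = 0.0022). The dimmer INCENP probe set, at signals of 28.53 to 35.08, overlapped between the groups and did not pass (0.10, 95% interval -0.0039 to 0.21, adjusted p = 0.15).

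CDCA8, which encodes borealin, rose on both of its probe sets. The brighter read 751.7, 749.9 and 769.3 in shNC and 917.7, 954.3 and 930 in shERCC6L (0.30 ± 0.03, adjusted p = 0.00022). The dimmer read 387, 379.1 and 389.5 against 494.2, 518.5 and 501.4 (0.38 ± 0.03, adjusted p = 7.1e-05). On either probe set the spread within a group was small beside the gap between the groups.

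BIRC5, which encodes survivin, the subunit that binds phosphorylated histone H3 at centromeres and is also a member of the inhibitor of apoptosis family, had the largest rise of the 9 genes. Its brightest probe set read 1568, 1500 and 1578 in shNC and 2464, 2454 and 2444 in shERCC6L. The lowest shERCC6L value was above the highest shNC value by 866 units, and the log2 fold change was 0.66 ± 0.03 (adjusted p = 3.4e-06). Of its 12 probe sets 9 passed as higher, at log2 fold changes of 0.29 to 0.66, with signals in shNC from 51.38 on the dimmest of them to 1578. The size of the rise differed between probe sets. The dimmest of the 9, with signals of 51.38 to 54.61 in shNC, rose by 0.29 ± 0.04, and another, at 497.6 to 556.5, by 0.41 ± 0.05. The dimmest of those at or above the median level read 80.66, 74.89 and 75.39 in shNC and 129, 127.8 and 121.1 in shERCC6L, a change of 0.61 ± 0.04 (adjusted p = 1.2e-05).

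The 3 BIRC5 probe sets that did not pass were of different kinds. Of these, 2 were dim, with signals between 12.92 and 35.69 on all arrays, and their groups overlapped at changes of -0.01 (95% interval -0.14 to 0.11) and 0.01 (-0.14 to 0.15). The other carries an identifier suffix for possible cross-hybridization, as do several BIRC5 probe sets that passed and an SGO2 one. It read 126.4, 134.3 and 121.2 in shNC and 128.3, 152.1 and 172.6 in shERCC6L. Its shERCC6L replicate 1 lay within the shNC range and the other 2 above it (0.21 ± 0.09, adjusted p = 0.11); without that array the change was 0.31 (adjusted p = 0.0081). With the 12 probe sets averaged BIRC5 rose by 0.41, against 0.66 on the brightest.

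SGO2, the shugoshin of which all 3 probe sets passed, read 340.2, 352.2 and 339.2 in shNC and 475.1, 491.9 and 502.5 in shERCC6L on the brightest. The nearest arrays of the 2 groups were 122.9 units apart, and the log2 fold change was 0.49 ± 0.04 (adjusted p = 2.2e-05). The other 2 SGO2 probe sets rose by 0.44 ± 0.04 and 0.39 ± 0.05. SGO1, the shugoshin that protects mitotic centromere cohesion, read 133, 125.6 and 133 in shNC and 151.9, 158.2 and 160 in shERCC6L on its brightest probe set (0.24 ± 0.04, adjusted p = 0.0015). Its other 2 probe sets were dim, at signals of 10.92 to 30.32, and did not pass, at 0.08 and 0.09 (adjusted p = 0.19 and 0.17). With the 3 averaged SGO1 rose by 0.14 (adjusted p = 0.0096). Without shERCC6L replicate 1 the dimmest SGO1 probe set passed (0.13, adjusted p = 0.037).

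**Figure D2:**
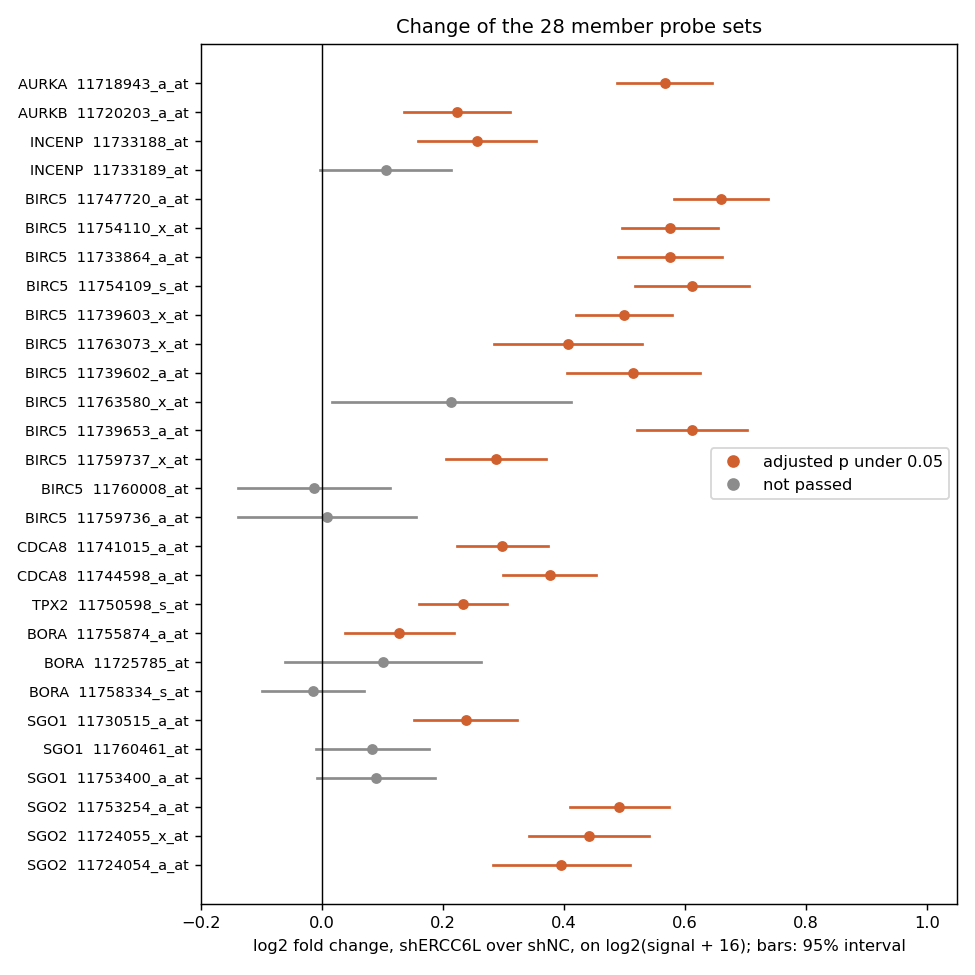
Log2 fold change (shERCC6L over shNC) of each of the 28 member probe sets with its 95% interval from limma (3 arrays per group), by gene and from bright to dim within a gene; orange marks an adjusted p under 0.05. The 20 orange points lie between 0.13 and 0.66, and the 8 grey ones between -0.01 and 0.21.

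Of the 8 member probe sets that did not pass, 5 were below the median level of all probe sets, and the others were 2 of BORA and 1 of BIRC5. Among the dimmest 10% of all probe sets, the 5th to 95th percentile of the log2 fold change ran from -0.05 to 0.04, and among the brightest 10% from -0.40 to 0.37.

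**Figure D3:**
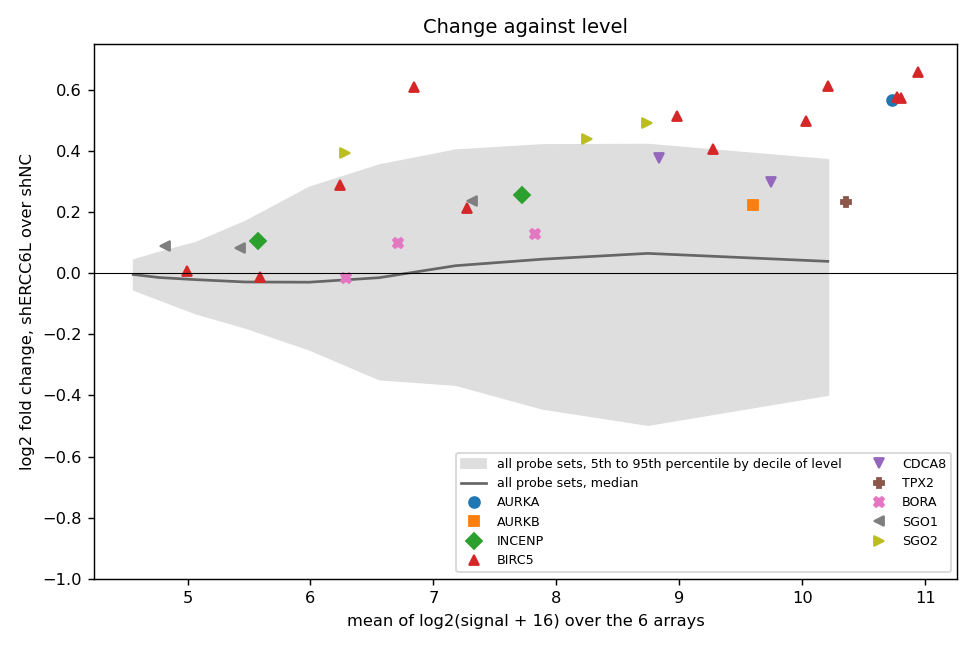
Log2 fold change of the 28 member probe sets (symbols by gene) against their mean log2(signal + 16) over the 6 arrays; the grey band is the 5th to 95th percentile and the line the median of all 49293 probe sets, computed in 10 equal bins of level and drawn at each bin's median level. AURKA, SGO2 and most BIRC5 probe sets lie above the band or, past its right end, above its last value. AURKB, TPX2, INCENP, CDCA8 and BORA lie at heights within it. SGO1 lies above the band on its dimmest probe set and within it on the brighter ones.

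Whether partners changed by the same amount was asked within arrays, as the difference of 2 genes' log2 values on their brightest probe sets, for 7 pairs. Such a difference shows unequal change of 2 probe sets and does not compare the amounts of 2 transcripts. Probe sets of 1 gene also differed: CDCA8 rose by 0.30 and 0.38, and the BIRC5 ones that passed by 0.29 to 0.66. A shift between single probe sets therefore need not be one between genes. With 3 arrays against 3 the 2-sided exact permutation test cannot go below 0.10, and 6 of the 7 pairs reached that value (0.117 adjusted over the 7). AURKA rose by more than AURKB: the difference was 0.91, 1.03 and 0.95 in shNC and 1.29, 1.25 and 1.37 in shERCC6L, a shift of 0.34 on the log2 scale (exact permutation p = 0.10). It also rose by more than its activators, by 0.33 over TPX2 and 0.44 over BORA, with groups that did not overlap.

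On the brightest probe sets of the passenger complex, BIRC5 rose by more than AURKB, with groups that did not overlap. The ratio of AURKB to INCENP overlapped between the groups. The AURKB minus BIRC5 difference shifted by -0.44, from -1.11, -1.14 and -1.13 in shNC to -1.58, -1.53 and -1.58 in shERCC6L, with SDs of 0.02 and 0.03. With each gene's probe sets averaged the shift was -0.19. The AURKB minus CDCA8 difference shifted by -0.08, with groups next to each other but not overlapping. The AURKB minus INCENP difference overlapped between the groups, at -0.03 (exact permutation p = 0.60), and changed sign without shNC replicate 3 (0.004) and with probe sets averaged (0.04). SGO1 minus SGO2 shifted by -0.25: SGO2 rose by more than SGO1 on all 3 shERCC6L arrays relative to every shNC array (exact permutation p = 0.10).

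**Figure D4:**
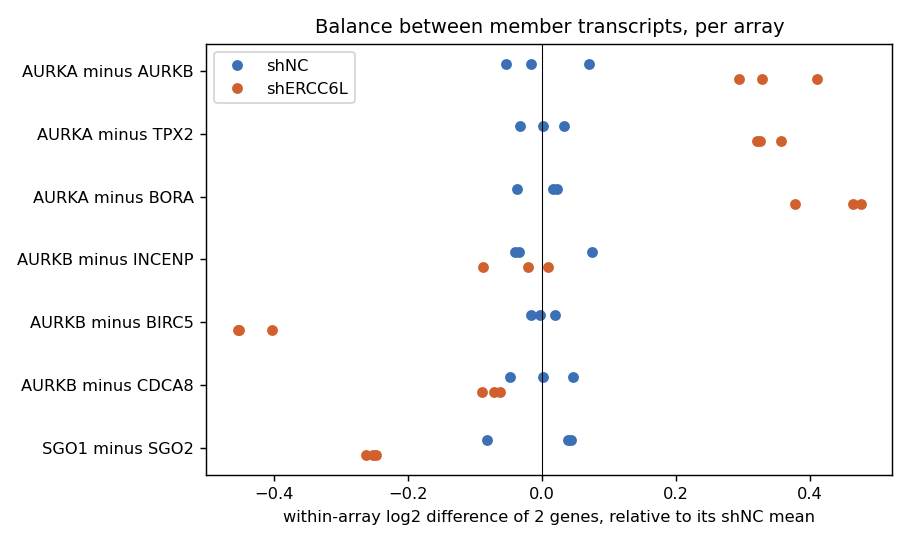
Within-array difference of log2(signal + 16) between the brightest probe sets of 2 members, minus its mean over the shNC arrays, for 7 pairs; each point is an array (3 shNC, 3 shERCC6L). The groups are apart for 6 pairs, with AURKA gaining on AURKB, TPX2 and BORA, and AURKB falling behind BIRC5, and they overlap for AURKB minus INCENP.

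The genes around the members were taken from lists by role and read on the brightest probe set of each gene, where 17.8% of all genes passed as higher and 12.9% as lower (32.1% and 19.1% of those at or above the median gene level). The lists were drawn up with results of these arrays known. Of 10 activators and spindle partners of Aurora A, 5 were higher and 3 lower, with a median log2 fold change of 0.16. TACC3, a microtubule-binding substrate of Aurora A, rose by 0.35 ± 0.04 (adjusted p = 0.00022). HMMR, a spindle protein that helps to place TPX2, fell by 0.60 ± 0.03 (adjusted p = 4.1e-06), and the scaffold genes NEDD9 and AJUBA, whose products activate Aurora A, fell by 0.41 and 0.32.

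Of 6 genes that turn over or restrain Aurora A, 3 were higher and 1 lower. FBXW7, a ubiquitin ligase subunit, rose by 0.26 and PPP6R1, a regulatory subunit of the phosphatase PP6, by 0.18. PPP6R2, another such subunit, fell by 0.16, but none of its other 3 probe sets passed, and with them averaged it did not (-0.06, adjusted p = 0.20).

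Of 11 genes that bring the passenger complex to chromatin or take it off, 6 were higher and 2 lower (median 0.14). HASPIN, the kinase whose mark on histone H3 survivin reads, rose by 0.34 ± 0.04 (adjusted p = 0.00032). CBX5, a heterochromatin protein, rose by 0.36 ± 0.04. RCC2, a GTPase regulator found with the complex at centromeres, fell by 0.43 ± 0.05 (adjusted p = 0.00016; all 4 of its probe sets passed as lower), and KIF20A, the kinesin that carries the complex to the midzone, fell by 0.12 (adjusted p = 0.034). Among 7 Aurora B substrates 6 were higher and 0 lower by limma (also 0 lower at an unadjusted p under 0.05; median 0.16), with KNL1 of the outer kinetochore at 0.39, the midzone kinesin KIF23 at 0.34 and NDC80 at 0.29. The other KIF23 probe set and 1 of the other 3 KNL1 probe sets did not pass, and with its probe sets averaged KNL1 rose by 0.22.

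The opposing phosphatases and the partners of the shugoshins did not move one way. Of 14 opposing phosphatase genes 3 were higher, 1 was lower and 10 did not pass (median 0.06): PPP1CC, a catalytic subunit of PP1, rose by 0.29 and PPP2R5E, a B56 subunit of the kind that shugoshins bind, by 0.25 (0.17 with its probe sets averaged), while PPP2R1B, a PP2A scaffold, fell by 0.45 ± 0.05 (adjusted p = 0.00036). PPP2R1A, the other PP2A scaffold of the list, named after its values were seen, did not pass on its brightest probe set (0.07, limma adjusted p = 0.20). Of its other 4 probe sets 2 passed as higher, and with all averaged PPP2R1A did not pass (0.09, limma adjusted p = 0.084). PPP2R5C, another B56 subunit, also named here after its values were seen, had a brightest probe set that did not pass (-0.06). Of the other 6, 3 passed as lower, and with all 7 averaged it fell by 0.37 (adjusted p = 1e-05). PPP2R5D, a further B56 subunit also named after its values were seen, went the other way. Its brightest probe set did not pass (0.13, limma adjusted p = 0.073), but all 4 others passed as higher. With all averaged PPP2R5D rose by 0.16 (limma adjusted p = 0.00081). Of 10 genes of cohesin and its release 3 were higher and 3 lower (median 0.03). SMC1A, a core cohesin subunit, read 588.7 ± 22.6 in shNC and 319.3 ± 13.7 in shERCC6L (SD, n = 3), a fall of 0.85 ± 0.04 (adjusted p = 3.4e-06), though only 2 of its other 4 probe sets passed and their average with it was -0.36. WAPL, which releases cohesin, fell by 0.71 ± 0.07 and STAG1 by 0.47 ± 0.05. All 5 WAPL probe sets passed as lower, with an average of -0.52.

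Paralogs of the members were read in the same way. AURKC, the Aurora kinase known from germ cells, read 66.14 to 72.72 in shNC and 65.98 to 71.31 in shERCC6L on the brighter probe set, with overlapping groups (-0.03, 95% interval -0.13 to 0.07, adjusted p = 0.65). Of the 7 measured paralogs and partners of the Aurora and survivin families 0 were higher and 2 lower by limma, with 1 higher, BIRC6, at an unadjusted p under 0.05 (log2 0.10, adjusted p = 0.12); its other probe set passed as higher. DIABLO, the mitochondrial antagonist of inhibitor of apoptosis proteins, fell by 0.41 ± 0.03 (adjusted p = 5.5e-05), and NAIP, a dim inhibitor of apoptosis family gene, by 0.21 (adjusted p = 0.0074). The other NAIP probe set did not pass, and with both averaged NAIP fell by 0.15 (limma adjusted p = 0.023).

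**Figure D5:**
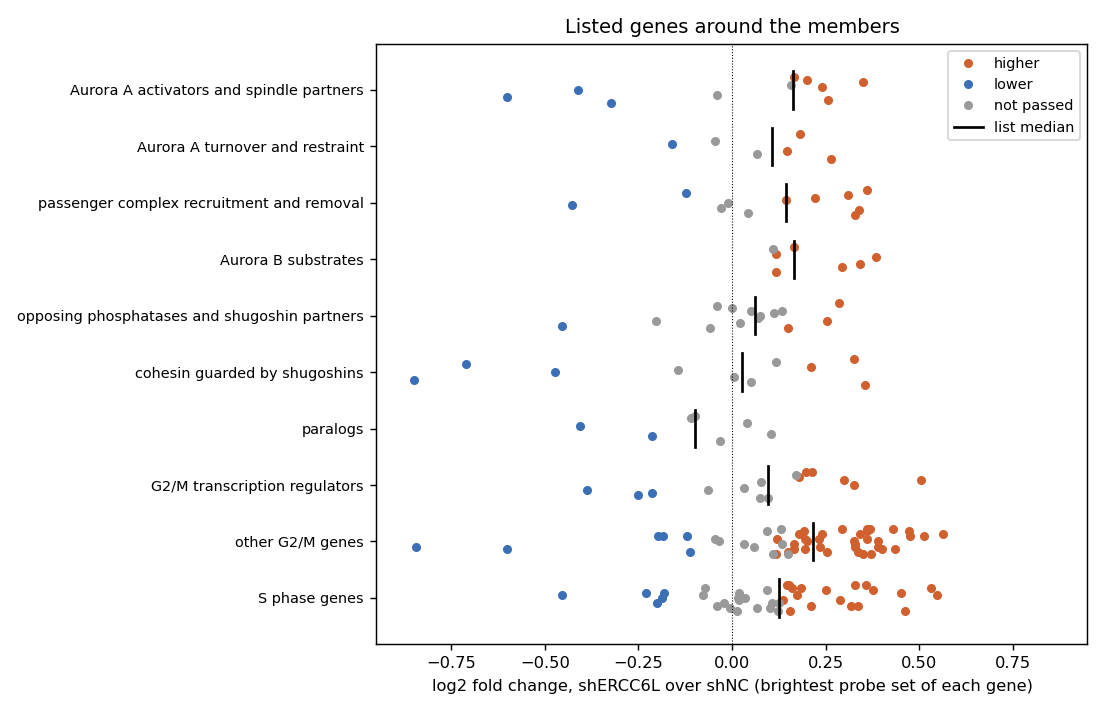
Log2 fold change (shERCC6L over shNC) of the brightest probe set of each gene in 10 lists around the members; each point is a gene, coloured by its call at an adjusted p under 0.05, and the black bar is the list median. The lists of Aurora B substrates and of other G2/M genes lie mostly to the right of 0, while cohesin genes spread to either side.

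The transcription factors known to act on such genes were also divided. Of 15 regulators of late cell cycle genes 6 were higher and 3 lower (median 0.10): E2F4 rose by 0.51 ± 0.05 and MYBL2, the MuvB partner that activates, by 0.33 ± 0.03, while FOXM1, an activator of AURKB and BIRC5 in other settings, fell by 0.39 ± 0.05 (adjusted p = 0.00042; all 3 of its probe sets passed as lower). NFYA, a subunit of the CCAAT-binding factor, fell by 0.25, and LIN54, the DNA-binding subunit of MuvB, by 0.21. Of the other 5 LIN54 probe sets 2 passed as lower, and with all averaged it fell by 0.12.

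Other cell cycle genes were read beside the members. Of 50 further G2/M genes 35 were higher and 6 lower, with a median of 0.22, close to the 0.26 over the 9 members; 12 of the 50 also stand in the lists above. Of 40 S phase genes 19 were higher and 5 lower, with a median of 0.12. In G2/M, CDCA3 rose by 0.57 ± 0.03 (with its probe sets averaged by 0.30), and NCAPD2, a condensin subunit, fell by 0.84 ± 0.04. TMPO, ANP32E, CTCF, GAS2L3 and HMMR were the other members of that list that fell, each on its brightest probe set. For TMPO 1 of the other 8 probe sets passed as lower, and the average was -0.09. For ANP32E 2 of the other 4 passed as higher, and the average was 0.07 (adjusted p = 0.20). In S phase RRM2 rose by 0.38 and FEN1 by 0.36, while PRIM1 fell by 0.45, TYMS by 0.23, UBR7 by 0.20, CDCA7 by 0.19 and E2F8 by 0.18. The other UBR7 probe set did not pass, and with both averaged UBR7 did not pass (-0.09, adjusted p = 0.075). The other CDCA7 probe set and the other 2 of E2F8 did not pass. With probe sets averaged, CDCA7 and E2F8 each still passed as lower, at -0.17 (limma adjusted p = 0.002 and 0.0034). Arrays of whole cultures cannot tell more cells in G2 and mitosis from more transcript per cell, and the part of either in the rise of the members was not tested.

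The genes whose 6 array values followed those of AURKA most closely, by the root mean square difference after centring on the shNC mean among 9057 other genes at or above the median gene level, were SLC39A9 (0.016), CXCL1 (0.018) and DDX39A (0.0203). For BIRC5 they were POLR1F (0.0195), CCND3 (0.026) and VMA21 (0.027). With 2 groups of 3 arrays this likeness is mainly a change of the same size: the 3 neighbours of AURKA rose by 0.56 to 0.58 and those of BIRC5 by 0.64 to 0.68.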

How the data were processed

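RNA of 3 shNC and 3 shERCC6L samples (6 ug each, per the labels' protocols) was hybridised to 1 Affymetrix array per sample. The deposited table gives intensities per probe set on a linear scale, which the authors made with Affymetrix Expression Console per the submitters' processing notes; how that program corrected, normalized and summarized the probes is not given in the sources used here. Precision is limited by the number of arrays.

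The table held 49395 probe sets, of which 102 controls were left out. In GEO's platform annotation 44988 of the rest had 1 gene symbol, 1832 several and 2473 none listed; 44961 of the 44988 were found by gene number in a RefSeq table (GRCh38.p14), and no symbol changed. Signals were transformed to log2(signal + 16), with no filter on dim probe sets. The comparison used limma 3.58.1 under R 4.3.3: lmFit, then eBayes, with 2-sided p-values on 4 residual plus 4.47 prior degrees of freedom. They were adjusted by Benjamini-Hochberg over all 49293 probe sets and called at 0.05. Other genes were read on their brightest probe set by overall mean. Tested on simulated data of all 49293 probe sets, the fit found 100% of 50 probe sets with a log2 change of 2. It found 98%, 90% and 50% at 1, 0.5 and 0.25, and 2.31% of 173 calls were false. The real comparison made far more calls (8296 higher and 5863 lower), so its adjusted threshold is a looser unadjusted one. The simulated shares need not hold for it.

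The members, the lists and the alternatives were chosen with earlier results of these data known. Named are all members, ERCC6L, AURKC, in each list the 3 genes of smallest p and those that passed against most of the list, and the 3 genes most like AURKA and BIRC5. The 17 alternatives changed the pseudocount, scaling, filter, probe set rule, limma settings or block, or left out an array. Promoter sequences are from RefSeq (GRCh38.p14) and were searched on both strands. Some genes are not analysed here.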

Additional observations from a re-analysis of the deposited data

Results flagged for a closer look

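A further AURKA signal stood outside the members because its probe set lists 3 gene symbols, AURKA among them, and it was noted as a signal that the comparisons do not use. Its signals were 651.4, 701 and 676.7 in shNC and 918.6, 935.8 and 1022 in shERCC6L, a mean of 958.8 ± 55.5 against 676.4 ± 24.8 (SD, n = 3). The groups did not overlap, and the log2 fold change was 0.49 ± 0.05 (SE, limma adjusted p = 0.00011), near the 0.57 of the AURKA probe set with 1 symbol. How much of this signal comes from each of the 3 genes cannot be told apart. Groups of 3 arrays are too small for a check of single outlying arrays.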

How the results depend on the processing

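Over 17 alternatives ERCC6L kept its call, and 0 member probe sets passed as lower in any of them. The count of member probe sets that passed as higher was 20 with a replicate block (8031 higher and 5665 lower over all probe sets), where same-numbered arrays share only a number (after the group means were taken off, they correlated at 0.22, -0.15 and -0.03), and 19 to 22 when each array was left out in turn. With the brightest probe set of each gene it was 9 of 9 genes (3302 higher and 2431 lower of 18132), and with each gene's probe sets averaged 8 of 9 (3603 and 2577), BORA being the gene lost; these counts are lower because fewer features were tested. Of 430 values of member probe sets under alternatives, 421 kept their direction and side of the threshold, or had no call to lose, 7 lost the call, all of BORA, and 2 gained one. The AURKB minus INCENP difference, -0.03, turned to 0.0421 with probe sets averaged, and it ran from -0.0547 to 0.004 when each array was left out. The cause was not tested. Quantile normalization and median centring moved the median of all probe sets to -0.0004 and 0.0023, and with them 19 and 20 member probe sets passed as higher. No probe set has a detection call, which limits most the 6 member probe sets below the median level.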
